A study of Caenorhabditis elegans with 2 samples.

Results

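rpr-1 is the gene of the RNA subunit of RNase P in Caenorhabditis elegans, and this account gives the ChIP-seq peaks of the homeobox transcription factor CEH-79 at that gene. A peak was counted to rpr-1 where its summit, the base the authors give as the highest of the peak, lay within 2000 bp of the gene. This held 1 of 566 peaks in the optimal list, 2 of 30000 candidates in the pooled list, 2 of 30000 in the list of replicate 1 and 2 of 29624 in the list of replicate 2. The gene was chosen by its measured signal and rank in these lists, so both are given as a description, with no test.

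The study held 1 group of 2 biological replicates of whole young adult worms, of mixed sex, of strain OP553 (unc-119(tm4063) III; wgIs553). The integrated transgene wgIs553 gives CEH-79 a C-terminal GFP-FLAG tag, both replicates carried it, and chromatin sheared by sonication was precipitated with an antibody to GFP. The worms were collected 66 hours after they had been synchronized as starved first-stage larvae. Peaks were called against a control alignment that was not used here, so no level of rpr-1 in control chromatin is given, and whole worms do not tell in which cells a peak arose. Read depth is unknown, because the lists hold peaks with a signal and no counts of reads.

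RNase P is the ribonucleoprotein that cuts the leader off the 5' end of tRNA precursors, and its RNA holds the catalytic centre. RNase MRP is a relative with an RNA of its own, best known for cutting precursors of ribosomal RNA, and shares most of its proteins with RNase P. In vertebrates, RNA polymerase III transcribes both RNAs from promoters that lie upstream of the gene, built of a proximal sequence element and a TATA box, while tRNA genes carry their promoter inside the transcribed part.

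The strongest peak at rpr-1 lay over the 5' end of the gene in both replicates. In replicate 1 its signal was 169.1, rank 3 of 30000. In replicate 2 its signal was 166.9, also rank 3, of 29624. Over the pooled alignments the signal was 344.1, rank 3 of 30000, and the optimal list carries the same peak with the same value at rank 3 of 566. Signals are the authors' own values for each peak and are on a scale of their own in each list, so across lists they are compared only after division by the list's median. The rpr-1 signal was 8.0 times the median in replicate 1, 9.45 times in replicate 2 and 10.5 times over the pooled alignments. The authors name the pooled list as peaks and background, so its median is not that of accepted peaks. Within the optimal list the rpr-1 signal was 3.26 times the median. As a share of the strongest signal of the same list it was 84.1% in replicate 1, 79.9% in replicate 2 and 84.1% over the pooled alignments. The deposited -log10 q of the pooled peak was 2.48, a maximum that 452 pooled candidates share, so only the signal separates it from the peaks around it in rank.

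**Figure D1:**
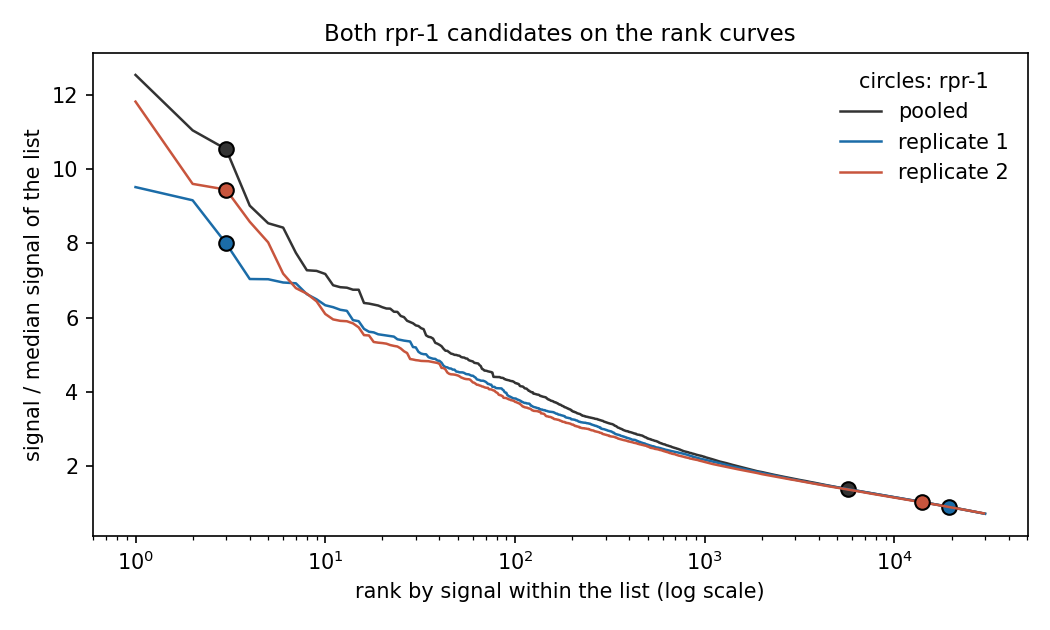
Signal divided by the median signal of its list, on the y axis, against rank by signal, on a log x axis, for the pooled list and each replicate; lines are the whole lists and circles the candidates at rpr-1. The stronger candidate sits at rank 3 on each curve, and the weaker one at ranks 5684, 19389 and 14010 in the pooled, replicate 1 and replicate 2 lists.

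The neighbours in rank were close by. In replicate 1 the rank 2 peak was 1.15 times as strong as rpr-1 and rpr-1 was 1.14 times as strong as the rank 4 peak. In replicate 2 these ratios were 1.02 and 1.101, and over the pooled alignments 1.05 and 1.17. With 2 replicates the spread of a signal cannot be tested peak by peak, and the order of ranks 2 to 4 is given as deposited.

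rpr-1 (WBGene00045238) is a 253 bp gene on the plus strand at I:13463955-13464207 in ce11, which has the coordinates of WBcel235. It lies inside an intron of ints-8 (WBGene00013021), which encodes a subunit of Integrator, the complex that cuts the 3' ends of small nuclear RNAs. ints-8 runs the opposite way, on the minus strand, at I:13455356-13470371. The host intron spans I:13462739-13464761, which is 2023 bp, and is intron 5 of the ints-8 transcript with 10 exons and intron 1 of the transcript with 6 exons. Of the intron, 1216 bp lie before the 5' end of rpr-1 and 554 bp after its 3' end, so the gene touches no exon of its host.

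The optimal rpr-1 peak spanned I:13463805-13464081, which is 277 bp, with 150 bp upstream of the gene and 127 bp inside it. In replicate 1 the peak was 230 bp wide, at I:13463817-13464046. In replicate 2 it was 210 bp wide, at I:13463835-13464044. All 3 stretches lay 100% inside the host intron. The summit was 8 bp upstream of the 5' end over the pooled alignments and in replicate 2, and 6 bp upstream in replicate 1. The summits of the replicates were thus 2 bp apart. At the 565 optimal peaks with a match in both replicates the median distance was 38 bp (quartiles 14 and 76 bp), and 32 of them (5.66%), rpr-1 included, had summits as close as 2 bp.

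A weaker candidate lay downstream and overlapped the first in every list of candidates, but was not among the optimal peaks. In replicate 1 its signal was 18.9, rank 19389, with the summit 193 bp downstream of the 5' end. In replicate 2 its signal was 18.0, rank 14010, with the summit also at 193 bp. Over the pooled alignments its signal was 44.9, rank 5684, with the summit at 191 bp, inside the gene. This was 0.895 times the list's median in replicate 1, 1.02 times in replicate 2 and 1.38 times over the pooled alignments. The deposited -log10 q of this weaker candidate was 0.0924, 0.170 and 0.476 in the same order. The first candidate was 8.94 times as strong as the second in replicate 1, 9.26 times in replicate 2 and 7.66 times over the pooled alignments, and the summits were 199, 201 and 199 bp apart. Such pairs were common: 233 of the 566 optimal peaks (41.2%) overlapped another pooled candidate, at a median of 204 bp between summits (quartiles 201 and 216 bp). The spacing at rpr-1 was near that of the other pairs. Its ratio of 7.66 was the highest of the 233, whose median was 2.26. The upper part of this ratio is the signal that rpr-1 was chosen for, so its place is a description. Of the 25 strongest optimal peaks, 7 overlapped another candidate, with a median ratio of 4.23, and the rest have no such ratio.

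Beyond 2000 bp the signal was lower on both sides. The nearest pooled summits outside this distance lay 2478 bp upstream of the 5' end, with a signal of 26.3 at rank 24288, and 2703 bp downstream, with a signal of 26.3 at rank 24342. Within 10000 bp of the gene there were 10 candidates in the pooled list, 10 in replicate 1 and 8 in replicate 2, and the rpr-1 peak was the single optimal one. The strongest of the others lay at a like distance in all 3 lists, past the far end of ints-8 and inside Y48G10A.3. Its summit was at 7916 bp with a signal of 34.8 in replicate 1, at 8129 bp with 43.3 in replicate 2 and at 8135 bp with 63.5 over the pooled alignments. The rpr-1 peak was 4.86, 3.85 and 5.42 times as strong in the same order. Of the 10 pooled candidates, 3 overlapped a candidate in both replicates, namely both at rpr-1 and this one, and the other 7 in a single replicate.

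**Figure D2:**
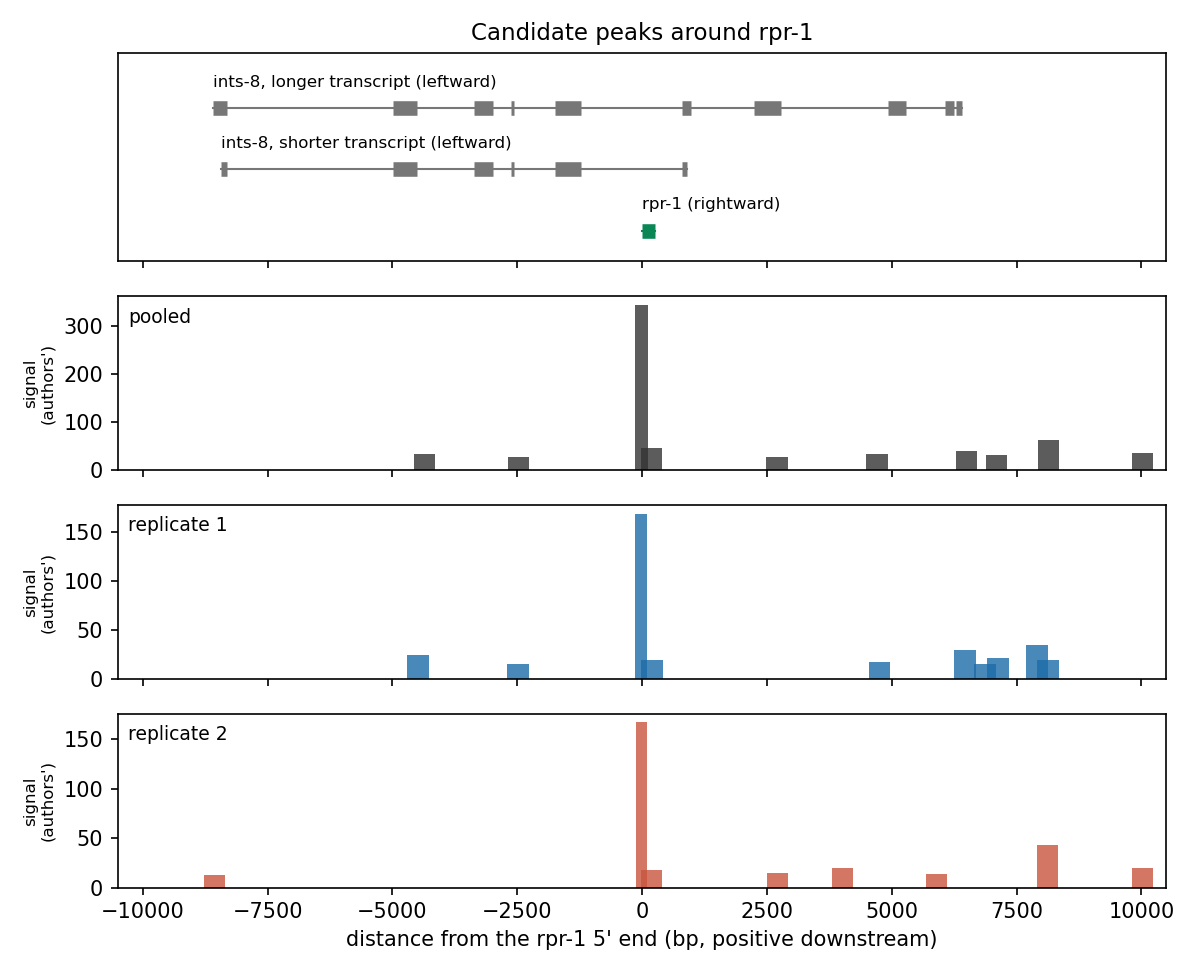
Candidate peaks within 10000 bp of rpr-1, with distance from the rpr-1 5' end in bp on the x axis and the authors' signal on the y axis of each lower panel; the top panel shows exons (thick) and introns (thin) of both ints-8 transcripts and rpr-1, and each bar spans a peak. The bar at the 5' end of rpr-1 is the tallest in each panel, at 344.1 pooled, 169.1 in replicate 1 and 166.9 in replicate 2, and other bars reach at most 63.5, 34.8 and 43.3.

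The summit was nearer to the start of rpr-1 than to any other annotated start. The shorter ints-8 transcript begins 899 bp away from the pooled summit, with the summit downstream of it, and no pooled candidate had its summit in the promoter window of that start, from 1000 bp upstream to 200 bp downstream. The longer ints-8 transcript begins 6424 bp away, and its promoter window held 2 pooled candidates, the stronger with a signal of 40.2 at rank 8225. Among other genes within 10000 bp, the piRNA gene 21ur-15556 has its 5' end 3513 bp from the summit, the noncoding gene Y48G10A.9 6944 bp and the protein-coding gene Y48G10A.3 10238 bp.

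The rpr-1 peak was narrower than most. Nearly all candidates of a list have 1 fixed width, 424 bp for 99.9% of the pooled list, 436 bp in replicate 1 and 420 bp in replicate 2. Only 36 pooled candidates, 13 of replicate 1 and 12 of replicate 2 were narrower than this, and rpr-1 was among them each time. Across the series 7 pooled candidates were narrower than the fixed width in all 3 lists, at pooled ranks 1, 2, 3, 4, 7, 8 and 14. Narrow peaks were thus gathered at the top of the ranking, where 15 of the 25 strongest optimal peaks were narrower than 424 bp. Against all optimal peaks, 28 of 566 (4.95%) were as narrow as the 277 bp at rpr-1 or narrower.

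The 5 optimal peaks nearest to rpr-1 by their log2 ranks in the pooled, replicate 1 and replicate 2 lists were taken as the most alike, over 2 replicates and the pooled list made from them. The closest, at a distance of 1.01, was the peak at ZK994.7, a snoRNA gene in an intron of the peroxidasin gene pxn-1, with rank 2 in every list. The next was a peak in mdt-26, which encodes a subunit of the Mediator complex, with ranks 5, 6 and 5. A peak before rpl-3, a gene of a large-subunit ribosomal protein, with its summit 289 bp upstream of that start, had ranks 4, 8 and 4. The peak 28 bp upstream of the snoRNA gene T03F7.8, inside cutl-18, had ranks 6, 5 and 6. The last, at sls-2.4, a gene of the SL2 spliced leader RNA near egg-5, had ranks 7, 4 and 9. rpr-1 had rank 3 throughout, and above it in every list stood only the peak at ZK994.7 and the rank 1 peak, which lay in frm-7 at a pair of snoRNA genes, C51F7.3 with C51F7.4.

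**Figure D3:**
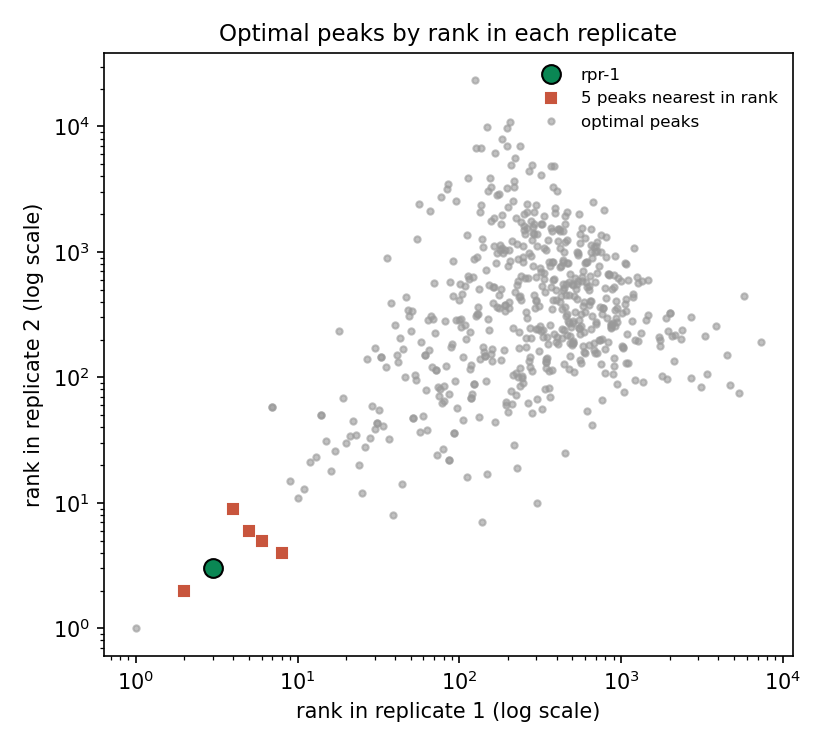
Rank in replicate 1 against rank in replicate 2, both on log axes, for the optimal peaks; each point is a peak, with rpr-1 as the large circle and the 5 peaks nearest to it in rank as squares. rpr-1 lies at rank 3 on both axes, and the 5 squares lie at ranks 2 to 8 in replicate 1 and 2 to 9 in replicate 2.

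Genes of other short RNAs also had optimal peaks, at shares given here by class. Of 612 tRNA genes, 127 had an optimal summit no further than 500 bp away (20.8%, 95% exact binomial interval 17.6 to 24.2%). The same was true of 54 of 346 snoRNA genes (15.6%, 11.9 to 19.9%) and of 16 of 129 snRNA genes (12.4%, 7.26 to 19.4%). These intervals overlap, and the classes were not compared by a test. Among miRNA genes it was 5 of 261 (1.92%, 0.625 to 4.41%). In the mixed class that the annotation calls ncRNA, to which rpr-1 belongs, it was 179 of 7764 genes (2.31%, 1.98 to 2.66%), and nothing is read from the place of rpr-1 among these, since it was chosen on its peak. The intervals cover counting error over genes only, and genes that lie close together can share a peak.

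At the other genes the summit took varied positions around the 5' end. The rpr-1 summit was 8 bp upstream. Of the 197 tRNA, snoRNA and snRNA genes with an optimal summit, 14 (7.11%) had it within 8 bp of the 5' end on either side, and these were 11 tRNA genes, 2 snoRNA genes and 1 snRNA gene. The median summit lay 19 bp downstream of the 5' end at tRNA genes, 26 bp upstream at snoRNA genes and 149.5 bp downstream at snRNA genes. rpr-1 therefore lay between the medians of the snoRNA and the tRNA genes. The snRNA class is that of the annotation and is mixed. Its genes counted here include sls-2 genes of SL2 spliced leader RNA, sup-6, sup-39 and mir-1831.

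**Figure D4:**
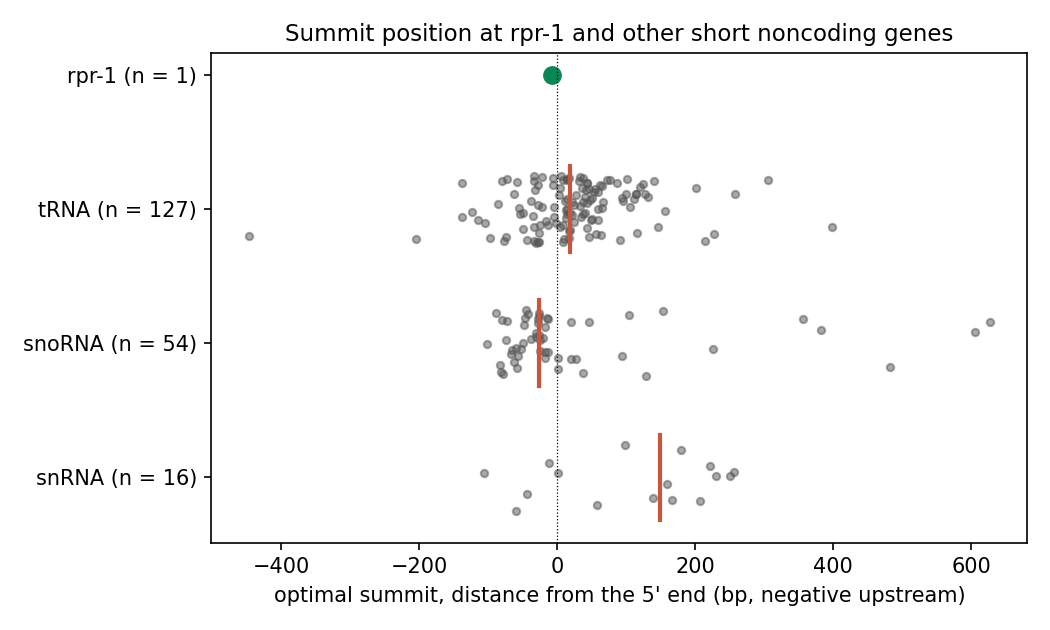
Position of the optimal summit relative to the 5' end in bp, negative upstream, on the x axis, for rpr-1 and for each tRNA, snoRNA and snRNA gene with an optimal summit within 500 bp; each point is a gene, points are spread vertically to separate them, and vertical bars are class medians. rpr-1 is at -8 bp, against medians of 19 bp for 127 tRNA genes, -26 bp for 54 snoRNA genes and 149.5 bp for 16 snRNA genes. The snRNA class is that of the annotation and is mixed.

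Many of these genes share the intronic position of rpr-1. An intron of a protein-coding gene held 89 of the 197 tRNA, snoRNA and snRNA genes with an optimal summit. Of these 89, 38 ran opposite to their host, as rpr-1 does, and 51 the same way. The intronic share of all annotated genes of these classes is not given, so neither count is read as a trait of genes with a peak. The introns of the 89 genes had a median length of 358 bp, against 2023 bp for the intron of rpr-1. The intronic snoRNA genes ranked above rpr-1 were C51F7.3, in a 267 bp intron of frm-7, and ZK994.7, in a 341 bp intron of pxn-1, both in the direction of their host. Those that followed were T03F7.8, opposite to its host cutl-18 in a 322 bp intron, and C10C6.8, in a 334 bp intron of catp-8 and in its direction.

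The MRP RNA gene mrpr-1 also had an optimal peak, with a lower signal and its summit further downstream. Its signal was 87.4 in replicate 1, rank 76, and 70.04 in replicate 2, rank 81. Over the pooled alignments it was 155.6, rank 63, against 344.1 at rpr-1. Divided by the median of its list, the signal at mrpr-1 was 4.13 in replicate 1, 3.97 in replicate 2 and 4.77 over the pooled alignments, below rpr-1 each time. The summit was 79 bp downstream of the 5' end in replicate 1 and 98 bp downstream in the other 2 lists, within the 186 bp gene, and the peak had the fixed width. The pooled summit also lay 218 bp upstream of the start of the protein-coding gene pcrg-1, inside its promoter window. Which of these genes the peak belongs to was not tested.

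Base composition at the rpr-1 summit differed from that of its host intron. From 50 bp before to 50 bp after the summit, G and C made up 62.4% of the reference sequence. The rpr-1 gene had 51.0%, the 250 bp upstream of it 49.2%, and the host intron without rpr-1 31.9%. At the 566 optimal summits the median was 48.5% (quartiles 40.6 and 53.5%), and 21 of them (3.71%), rpr-1 included, were at 62.4% or above. The rpr-1 gene had no second copy: a blastn search of the genome gave no other alignment with an e-value below 0.01 for the gene or for this stretch at the summit. The whole 277 bp peak gave 12, the longest over 66 bp at 78.8% identity.

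Upstream of rpr-1 lay a composite word that was also upstream of mrpr-1 and ZK994.7. It consists of GCGNAACCC, a gap of 6 bp and TGTCNGCC, which makes 23 bp with 15 fixed letters, read on the strand of the gene. The word was put together after the sequences upstream of these 3 genes had been seen, so its presence there is a description. Its start is 70 bp upstream of the 5' end at rpr-1, 72 bp at mrpr-1 and 84 bp at ZK994.7, and at rpr-1 it ends 48 bp upstream. The letters TATA begin 40 bp after the start of the word at rpr-1, which is 30 bp upstream of the gene. They begin 38 bp after it at mrpr-1 and 42 bp after it at ZK994.7. The order of parts, an upstream element and then TATA, is the one described for the RNase P RNA gene of vertebrates, and whether the letters found here act as such parts was not tested.

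The sequences are shown for 3 of the 5 genes other than rpr-1 that had both the word and an optimal summit, the 3 at which TATA followed the word, with capitals for the fixed letters of the word and for TATA, from the RefSeq sequence of WBcel235. Y37E3.20 and F25H2.15, the other 2, had no TATA there and are not shown. F54D8.7, an snRNA gene by the annotation, was picked for display because it had the word, TATA and an optimal summit, so it is no independent instance of the pattern.
mrpr-1, II:7200161-7200183, plus strand: GCGaAACCCtcaaagTGTCtGCC
ZK994.7, V:8500495-8500517, plus strand: GCGaAACCCgactcaTGTCgGCC
F54D8.7, III:5080947-5080969, minus strand: GCGgAACCCacgagaTGTCtGCC
mrpr-1, TATA at II:7200195-7200206, plus strand: ggtgTATAtata
ZK994.7, TATA at V:8500533-8500544, plus strand: ctttTATAagcg
F54D8.7, TATA at III:5080922-5080933, minus strand: ccacTATAtaag
At the 8 free positions of the word, rpr-1 has the same base as mrpr-1 at 2, as ZK994.7 at 2 and as F54D8.7 at 4.

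Across the genome the word had 268 exact matches on both strands, and 5 of these began inside an optimal peak. A match began 55 to 90 bp upstream of 16 noncoding genes, which were 9 of 346 snoRNA genes, 2 of 129 snRNA genes, 4 of 7764 genes of the ncRNA class, 1 of 261 miRNA genes and 0 of 612 tRNA genes. Among the 16, 6 had an optimal summit no further than 500 bp away, namely ZK994.7, rpr-1, mrpr-1, F54D8.7, Y37E3.20 and F25H2.15. The first 3 of these are the genes the word was put together from, so their place in the count was fixed by that choice. Of the 13 genes that were not used for it, 3 had an optimal summit that near, namely F54D8.7, Y37E3.20 and F25H2.15. The first is an snRNA gene and the others are snoRNA genes, the class of most of the 13. Of all genes of a class, 15.6% of snoRNA, 12.4% of snRNA, 2.31% of ncRNA and 1.92% of miRNA genes had one. Over tRNA, snoRNA, snRNA and ncRNA genes together it was 376 of 8851 (4.25%), of which 7764 are of the ncRNA class. At F54D8.7, Y37E3.20 and F25H2.15 the pooled summits lay 60 bp upstream, 153 bp downstream and 94 bp downstream of the 5' end. In replicate 1 the strongest candidates within 500 bp of these genes had ranks 109, 665 and 56. In replicate 2 the ranks were 537, 42 and 1003, with the summit at F25H2.15 646 bp downstream of the 5' end. No test was run on the word. Of the other 10 genes, 9 had a pooled candidate within 500 bp, with the best at rank 579 and the weakest at rank 25689. The word thus also stood at genes with weak candidates, and 252 matches were at no noncoding gene start.

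**Figure D5:**
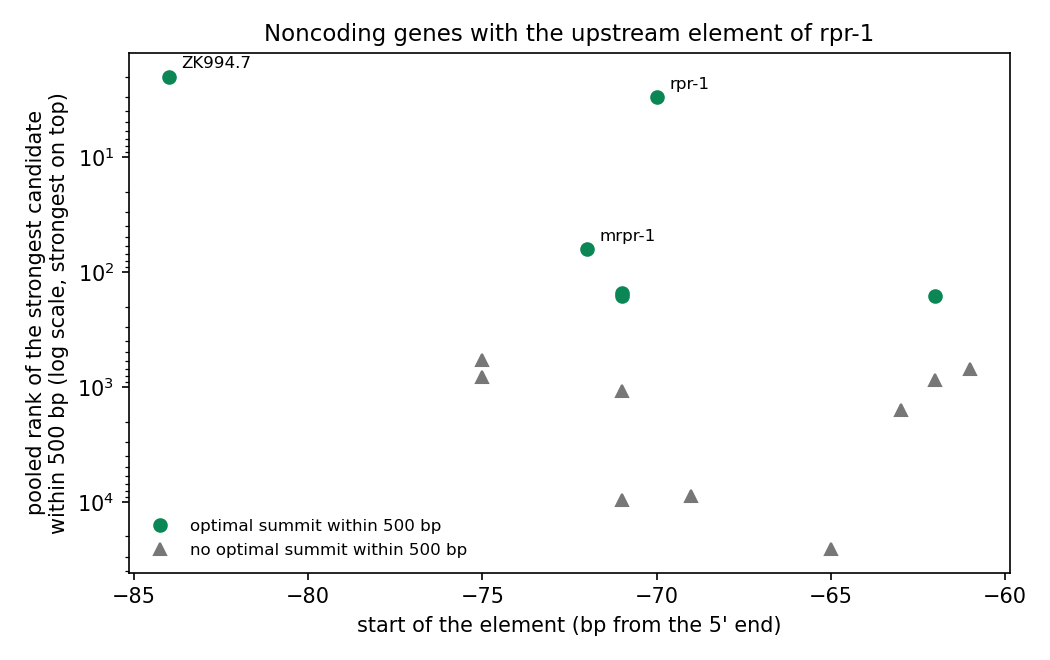
Start of the composite word relative to the 5' end in bp, on the x axis, against the pooled rank of the strongest candidate within 500 bp, on a log y axis with the strongest on top, for the noncoding genes with the word; each point is a gene, and a gene with no pooled candidate is not drawn. ZK994.7, rpr-1 and mrpr-1 are at ranks 2, 3 and 63, and the genes with no optimal summit run from rank 579 to rank 25689.

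How TATA divides the 16 genes depended on where it was looked for. In the first window tried, 20 to 40 bp upstream of the annotated 5' end, TATA began at 6 genes, 3 of them with an optimal summit, and the median pooled rank was 623. ZK994.7 was not among them. The window was then set 30 to 50 bp after the start of the word, with the ranks already known, and again held 6 genes, 4 of them with an optimal summit and with a median pooled rank of 107. Of all 268 exact matches of the word, 11 (4.10%) had TATA in the second window. Of the 252 at no noncoding gene start, 5 (1.98%) had it. Since the second window was set to take in ZK994.7, no relation of TATA to rank or to the 16 genes is read from these counts. The genes with TATA in both windows were 5, namely rpr-1, mrpr-1 and F54D8.7, which had an optimal summit, and lfor-1 and lfor-2, which had none and whose strongest pooled candidates ranked 1095 and 9637. Y37E3.20 and F25H2.15, which had an optimal summit, had TATA in neither.

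A separate search for 6 words of 6 bp within 250 bp of the 5' end, on both strands, found a single one at rpr-1. GAGAGA began 26 bp downstream of the 5' end and, on the other strand, 244 bp upstream, and it was at 40.7% of 7754 starts of the ncRNA class. The other 5 words had no match at rpr-1. Of these, TATAAA was at 36.9% of ncRNA starts, GTTCGA at 19.4%, GTTGCC at 14.7%, TAATTA at 17.0% and GATAAG at 18.7%. At mrpr-1 only TATAAA matched, 30 bp upstream. GTTCGA, a core of the promoter element inside tRNA genes, was at 77.6% of tRNA starts. Homeodomain proteins are known for binding sites with TAAT cores, and the lack of TAATTA says only that these letters are not in this window.

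A list of 10 genes of RNase P and MRP proteins and of tRNA processing had no optimal peak in their promoter windows. Of these 10 genes, 5 had a pooled candidate there and 0 an optimal one, beside 296 of 19973 protein-coding genes (1.48%) with an optimal one. The share of all protein-coding genes with a pooled candidate is not given, so the 5 is not read as high or low. The strongest was at tsen-34, a subunit of the tRNA splicing endonuclease, with a signal of 50.2 at rank 3856. popl-4, which encodes an RNase P and MRP protein, followed with 49.4 at rank 4054. The replicates differed at both: the ranks in replicates 1 and 2 were 2789 and 20936 at tsen-34, and 2938 and 25975 at popl-4. At hoe-1, which encodes the enzyme that cuts the 3' end of tRNA precursors, there was no pooled candidate. Replicate 2 alone had a candidate there, at rank 14952.

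The Integrator genes, with the host ints-8 among them, and the polymerase machinery had none either. The host ints-8 is also 1 of the 5 Integrator genes counted below with a pooled candidate, at rank 8225. Of 16 Integrator genes 11 were matched in the annotation, 5 of them had a pooled candidate and 0 an optimal one, with the strongest at ints-13, at a signal of 52.2 and rank 3351. Of 14 genes of the RNA polymerase III machinery 11 were matched, 2 had a pooled candidate and 0 an optimal one. The stronger of these was at snpc-3.4, a homologue of a subunit of the complex that binds the proximal sequence element, with a signal of 59.7 at rank 2020, and the other at tbp-1, the TATA-binding protein, with 35.2 at rank 12222. With 10 or 11 genes in a list and a background of 1.48%, a count of 0 is near that background and is not a result about the lists. Nor is anything read from the pooled counts, which have no share over all protein-coding genes beside them.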

How the data were processed

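Per the notes deposited with the files, the authors called candidates in either replicate and in both pooled, each time against a control alignment, and thresholded an optimal list on the irreproducible discovery rate. For the aligner and the peak caller, nothing is given in the sources used here. Each peak has a signal that is the authors' deposited value in an unstated unit, and it was used to rank and describe peaks within a list. The deposited -log10 q has a ceiling shared by many peaks. Read depth is unknown.

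The ce11 lists were read as deposited, with Ensembl release 115 gene models and the RefSeq sequence of WBcel235, nuclear genes only. Coordinates are 1-based. Offsets are summit minus 5' end along the gene. No test was run, since there is 1 group and rpr-1 was chosen on its signal. Intervals are exact binomial at 95%. Named genes were rpr-1, its host, all genes within 10000 bp, mrpr-1, the 5 peaks nearest in rank, the optimal peaks ranked 1 to 6, up to 6 intronic noncoding genes by signal, and 3 lists of proteins. The gene, the lists and the words were chosen with earlier results of these data known, and the composite word, its windows and F54D8.7, Y37E3.20 and F25H2.15 after their values were seen. Offset code was tested on simulated data. Sequence searches used blastn 2.17.0. Python 3.11.15 ran the rest, with scipy 1.17.1 for intervals, pandas 2.3.3 and numpy 2.4.6 for tables and matplotlib 3.10.9 for plots.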

Additional observations from a re-analysis of the deposited data

How the results depend on the processing

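The pooled rank of 3 was the same with overlapping candidates merged, in either replicate alone and for the strongest chromosome I peak of each of the 4 ce10 lists, whose coordinates were not converted. Ranked by the deposited q, ties put rpr-1 anywhere from 1 to 452. Ranking by the deposited p column was not run, because that column holds no values. The count of 2 pooled candidates was the same within 500 and 1000 bp, by any base within 2000 bp and in either replicate alone, and was 6 within 5000 bp and 10 within 10000 bp. The signal over the list's median was 10.5 pooled and 8.0 to 9.45 without 1 replicate. The offset was -8 bp with the RefSeq annotation, -12 bp by the peak's midpoint and -8 to -6 bp without 1 replicate. The share inside the host intron was 100% in either replicate alone. Noncoding genes of 4 classes with an optimal summit nearby were 4.25% of 8851 at 500 bp, 3.82% at 200 bp, 5.20% at 1000 bp and 3.77 to 4.03% with the strongest candidates of a single replicate. Chosen after seeing the data, allowing 1 mismatch in the composite word gave 44 genes against 16 exact, and the first TATA window gave a median pooled rank of 623 against 107. No paired analysis was possible because there was 1 group and no contrast. Unknown read depth leaves the error of a single signal unmeasured.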
